A study of Mus musculus with 2 samples.

Results

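Long unmethylated canyons were described in 2 bisulfite libraries of mouse hippocampus, together with the DNA that borders them. A region was taken as a chain of neighbouring 500-bp bins whose methylation, averaged over both libraries, was under 10%, with starts at most 1000 bp apart and no bin of 10% or more between them. Chains that spanned at least 4000 bp were kept, so the regions were chosen by their methylation level, which gave 211 regions of 18727 chains on chromosomes 1 to 19. The other chains comprised 15325 under 2000 bp, called short chains below, and 3191 of 2000 to under 4000 bp. For that reason the low level inside them and the higher level just beyond them describe that choice and were not tested.

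Most CpG dinucleotides of a mammalian genome are methylated, and the exceptions are mainly CpG islands at gene starts. Some unmethylated stretches run much further than a single island and are known as canyons or valleys. They often surround genes of developmental regulators held by Polycomb proteins, and their borders, where methylating and demethylating enzymes are both active, are known to be less stable than their centres.

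Both libraries came from hippocampus, the brain region needed for spatial and episodic memory, of C57BL/6 mice, with 1 library per group. The control group received no treatment. The exposed group was offspring of dams given 5000 ppb arsenic trioxide (ATO) in drinking water from before mating through lactation, with the exposure continued in the offspring after weaning. Whether a library stands for 1 animal or several pooled animals is not stated, and the exposure cannot be tested with n = 1 per group. DNA was captured with the Agilent SureSelect Mouse Methyl-Seq panel, converted with bisulfite and sequenced. The percentage of reads with a C at a CpG was taken as its methylation level. The hippocampal identity of the DNA could not be checked, since no expression was measured. In bulk tissue, a larger share of methylated cells and more methylation per cell cannot be told apart.

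The control table listed 5772100 CpG cytosines with 135987272 reads in all, and that of the ATO library 5973197 cytosines with 147924810 reads. On chromosomes 1 to 19, 2271297 cytosines had at least 10 reads in both libraries, and 149544 bins held at least 5 of these. Over these cytosines, methylation was 41.1% in control DNA and 39.7% in ATO DNA. The regions held 39722 of them, with a median coverage of 36 reads in control DNA and 39 in the ATO library. Of the cytosines inside, 98.6% lay on the reverse strand, against 95.3% of all analysed. Intervals of levels are exact binomial 95% intervals, for called bins on sums divided as described there, and intervals of differences use the normal approximation at the same level. All cover counting error only, since reads may be copies of 1 molecule. Except for called bins, a read is counted once for each cytosine it covers, so the intervals may be too narrow even for that. A difference is the ATO minus the control level, in percentage points.

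The promoters of 5 genes show what the DNA of these regions looks like, since their levels recur in the results. They are the starts in the longest and the next longest named regions (Crnde, Bahcc1), in the longest region with a lower level in the ATO library by more than 1 point (Prdm12), in the Hox region with the highest level (Hoxa5), and beside one of the edges with a higher level in the ATO library (Per1). The letters are RefSeq promoters of build GRCm38.p6, from 250 bases before the start to 50 after it, printed 5′ to 3′ on the gene's strand with each CG dinucleotide in capitals. CG reads the same on both strands. The positions are mm9 and come from matching the spacing of the CGs to the listed cytosines, and all CGs of the 5 promoters fell on listed positions.
Crnde, chr8:94879970-94880269, minus strand: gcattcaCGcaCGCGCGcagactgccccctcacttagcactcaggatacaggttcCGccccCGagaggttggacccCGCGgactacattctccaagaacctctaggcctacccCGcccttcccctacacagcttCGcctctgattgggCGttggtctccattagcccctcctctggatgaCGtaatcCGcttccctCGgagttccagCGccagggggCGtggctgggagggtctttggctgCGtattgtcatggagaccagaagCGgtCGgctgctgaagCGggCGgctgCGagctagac
Bahcc1, chr11:120094011-120094310, plus strand: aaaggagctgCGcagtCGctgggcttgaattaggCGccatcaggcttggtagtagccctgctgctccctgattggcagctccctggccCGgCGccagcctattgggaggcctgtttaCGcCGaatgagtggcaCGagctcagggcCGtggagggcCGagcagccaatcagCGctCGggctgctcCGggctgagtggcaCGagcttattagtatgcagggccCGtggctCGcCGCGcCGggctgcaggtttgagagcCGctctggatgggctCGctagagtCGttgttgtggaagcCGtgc
Prdm12, chr2:31495307-31495606, plus strand: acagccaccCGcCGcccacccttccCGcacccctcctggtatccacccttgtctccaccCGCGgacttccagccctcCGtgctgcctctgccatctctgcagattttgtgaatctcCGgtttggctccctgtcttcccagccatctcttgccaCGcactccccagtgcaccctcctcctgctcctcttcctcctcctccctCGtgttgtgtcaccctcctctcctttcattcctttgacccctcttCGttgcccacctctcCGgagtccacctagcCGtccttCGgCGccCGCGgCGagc
Hoxa5, chr6:52154537-52154836, minus strand: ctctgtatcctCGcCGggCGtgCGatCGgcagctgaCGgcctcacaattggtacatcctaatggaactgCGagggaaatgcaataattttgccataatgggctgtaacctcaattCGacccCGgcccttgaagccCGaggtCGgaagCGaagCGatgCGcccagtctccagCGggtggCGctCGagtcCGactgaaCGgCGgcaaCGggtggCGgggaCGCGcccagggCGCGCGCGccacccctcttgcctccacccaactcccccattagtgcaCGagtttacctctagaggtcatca
Per1, chr11:68912201-68912500, plus strand: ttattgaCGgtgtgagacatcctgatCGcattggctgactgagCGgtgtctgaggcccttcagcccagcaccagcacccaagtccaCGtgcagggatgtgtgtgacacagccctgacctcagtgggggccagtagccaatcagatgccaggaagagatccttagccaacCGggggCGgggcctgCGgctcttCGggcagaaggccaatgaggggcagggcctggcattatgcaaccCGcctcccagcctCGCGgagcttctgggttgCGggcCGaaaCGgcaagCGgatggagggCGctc

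The Hoxa5 promoter held 29 CGs, the Bahcc1 promoter 23, the Crnde promoter 22, the Prdm12 promoter 17 and the Per1 promoter 16. The median over the 32851 promoters of the RefSeq table was 7, and 33.0% of them held at least as many as Per1. Methylation over the Per1 promoter was 2.07% in control DNA and 1.85% in ATO DNA, and the Crnde promoter was at 1.53% and 2.19%. The Bahcc1 promoter was at 0.697% (interval 0.227 to 1.62%) in control DNA and 1.95% (1.04 to 3.30%) in ATO DNA. The Prdm12 promoter was lower in the control, at 1.63% (0.750 to 3.08%) against 4.45% (3.09 to 6.20%), while the Hoxa5 promoter was at 6.91% (5.62 to 8.39%) in control DNA and 4.22% (3.18 to 5.46%) in ATO DNA. The last 2 promoters differed in opposite directions, and in each case against the direction of the region around them, which is given below. No cytosine of the 5 promoters was called as different.

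The regions were 4000 to 10000 bp long, with a median of 4500 bp. Of the 211, 90 spanned exactly 4000 bp, the shortest span kept, and 175 chains stopped at 3500 bp. The plot of chain spans shows no break at the chosen length. The 3 regions at the limit that come first by position held Epha4, an ephrin receptor (1.57% in control DNA and 2.96% in ATO DNA), Gbx2, a homeobox gene of the midbrain-hindbrain border (4.44% and 4.64%), and Lhx4, a homeobox gene of pituitary development (3.92% and 3.23%). The first 3 chains below the limit were at 2.97% and 2.50% (Irs1, an insulin receptor substrate), 2.26% and 2.20% (St8sia4, a polysialyltransferase) and 1.94% and 2.41% (unnamed). Chromosome 5 held the most regions, 21, and chromosome 16 the fewest, 3.

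**Figure D1:**
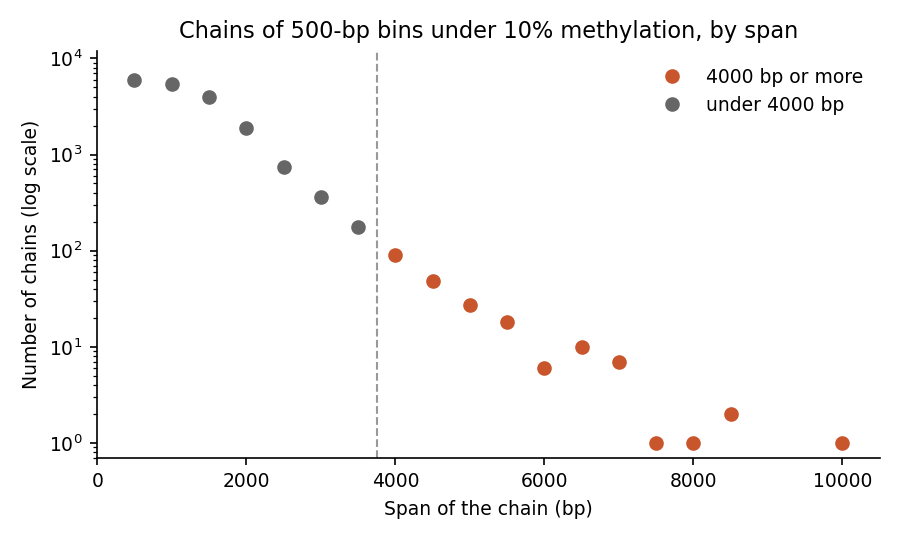
Number of chains (log scale) at each span in bp, with the 211 chains of 4000 bp or more in orange and shorter chains in grey, parted by the dashed line. The numbers run without a break at the line, from 175 chains at 3500 bp to 90 at 4000 bp and a single chain at 10000 bp.

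Gene starts were placed for 12744 of the 32851 RefSeq promoters, by the spacing of their CGs. Of the 211 regions, 144 (68.2%) held at least 1 placed start, of 183 genes in all. The other 67 are given without a name. Developmental transcription factors were common among these genes. Of 96 placed genes from developmental transcription factor families, such as the Hox, Fox, Pax, Sox and Gata genes, 24 (25%) started in a long region, whereas 183 of 10758 placed genes did (1.70%). The 24 included Foxa1, Foxd3, Sox11, Sox4, Olig2, Neurog2, Dlx1, Pax2, Pax5, Nkx6-1 and Gata2. A higher share was not particular to long regions. In chains of 2000 to under 4000 bp, 43 of the 96 started (44.8%), against 24.5% of all placed genes. None of the 8 placed Polycomb genes started in a long region. 4 of them started in chains of 2000 to under 4000 bp and 4 in short chains, where 62.0% of all placed genes started. These counts are descriptions, with no test, and the share depends on which promoters could be placed.

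The longest region, of 10000 bp, lay at chr8:94878501-94888500 and held the start of Crnde, a long noncoding RNA. Its 422 cytosines were at 4.45% (4.16 to 4.75%) in control DNA and 5.77% (5.46 to 6.10%) in ATO DNA, and 13 of its 17 bins were higher in the ATO library. The region at chr11:120091001-120099500, of 8500 bp, held Bahcc1, which codes for a protein that reads a Polycomb histone mark. It was at 2.16% and 2.28%, intervals that overlap. Foxa1, a pioneer transcription factor, lay in another region of 8500 bp, at chr12:58643001-58651500, with 4.72% and 5.06%. Skor1, a transcriptional corepressor, followed with 8000 bp at chr9:62989501-62997500, and with 3.18% and 3.41%.

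A region of 7500 bp on chromosome 18 had no placed start, and was at 3.85% and 4.54%. The next 5 spanned 7000 bp each. Bcl11a, a zinc-finger repressor of neuronal and blood development, was at 2.23% and 2.11% (chr11:23975501-23982500). Fgf9, a growth factor made by neurons, was at 2.09% and 2.23% (chr14:58689001-58696000). Both pairs of intervals overlapped. An unnamed region at chr19:45303501-45310500 was at 4.72% and 3.92%. Prdm12, a transcription factor needed for pain-sensing neurons, was at 4.80% (4.45 to 5.17%) in control DNA and 3.23% (2.95 to 3.53%) in ATO DNA (chr2:31490501-31497500), and 12 of its 14 bins were lower in the ATO library. Pcdh7, a protocadherin of cell adhesion, was at 2.29% and 3.21% (chr5:58105001-58112000). Of these 10 regions, 7 were thus higher and 3 lower in the ATO library. The cut at 10 fell within a tie, filled by position order, since 7 regions spanned 7000 bp. Only 2 of those 7 were higher in the ATO library. The regions of 7000 bp left out were both lower, Cdx2 at 4.10% and 3.73% and an unnamed region at chr7:144508001-144515000 at 4.84% and 4.56%.

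Inside the 211 regions together, methylation was 3.16% (3.14 to 3.19%) in control DNA and 3.26% (3.23 to 3.28%) in ATO DNA, a difference of 0.0922 points. Mitochondrial cytosines, which lie outside the regions, were at 1.97% and 2.06%, a difference of 0.0921 points. Several promoters and regions were at levels close to these or below them. How far such levels reflect methylated DNA was not tested. In short chains the levels were 3.26% and 3.27%, a difference of 0.00645 points. Region by region, 110 were higher and 101 lower in the ATO library, the median difference was 0.04 points, and the SD over regions was 0.633 points. Among short chains, 7716 were higher and 7603 lower. The long regions were thus divided nearly evenly between the directions. The pooled difference also changed sign under 2 other ways of building the chains, to -0.00241 where starts had to lie at most 500 bp apart and to -0.0372 where the ATO library alone set the level.

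Regions kept their rank between the libraries. Across the 211 regions, the control and ATO levels had a Pearson r of 0.865 and a Spearman rho of 0.880, a description of regions that share the same libraries. Control levels ran from 1.55 to 6.37%. In the plot of levels inside, most points lie close to the diagonal.

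**Figure D2:**
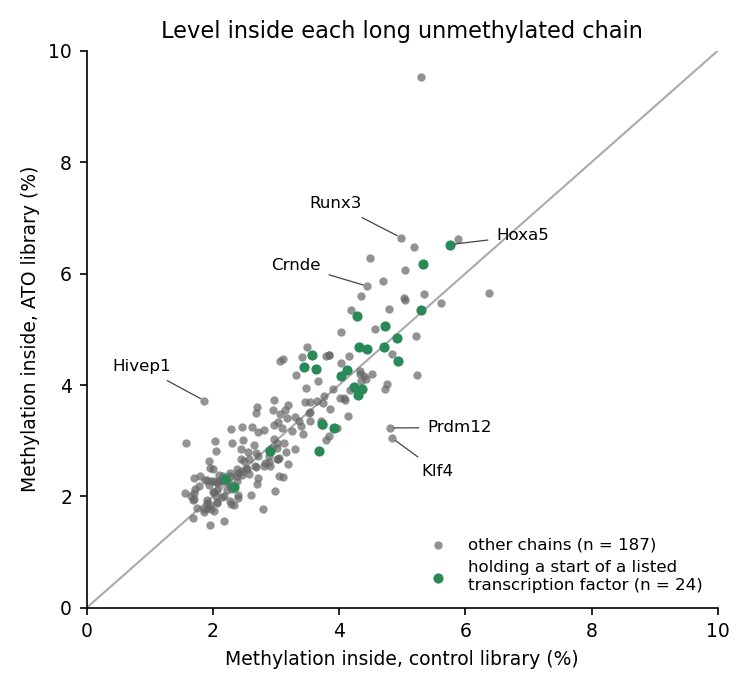
Methylation inside each of the 211 regions, control library against ATO library, in percent, with the line of equal levels. Regions that hold a start of a listed transcription factor (green, n = 24) lie mostly between 3 and 6%, and the point farthest above the line is an unnamed region at 5.30% and 9.53%.

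A difference of at least 1 point inside was found in 19 of the 211 regions, 15 higher and 4 lower in the ATO library, whereas 33.1% of all 18727 chains differed by as much (16.2% higher and 17.0% lower). Shorter chains hold fewer cytosines and scatter more. Of the 328 short chains with at least 100 cytosines, 34 (10.4%) did, 6.40% higher and 3.96% lower. The long regions, with a median of 183 cytosines, were not matched to these short chains on the number of cytosines.

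Among regions with at least 100 cytosines, the lowest differences belonged to Klf4, a transcription factor of stem cells that neuronal activity also induces, Prdm12, and Prdm13, a transcription factor of inhibitory neurons. The Klf4 region (chr4:55543001-55547000) was at 4.84% (4.32 to 5.40%) in control DNA and 3.05% (2.67 to 3.46%) in ATO DNA. The Prdm13 region (chr4:21612501-21616500) was at 5.23% (4.599 to 5.91%) and 4.18% (3.66 to 4.75%). All 3 were lower in the ATO library in most of their bins, 6 of 8 for Klf4 and 6 of 7 for Prdm13.

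The highest differences were in Hivep1, an unnamed region and Runx3. Hivep1, a large zinc-finger protein (chr13:42144001-42148500), was at 1.86% (1.53 to 2.25%) in control DNA and 3.72% (3.26 to 4.23%) in ATO DNA. The unnamed region at chr15:97831501-97835500 was at 4.48% and 6.28%. Runx3, a transcription factor of sensory neurons and T cells (chr4:134708001-134712000), was at 4.98% (4.42 to 5.59%) and 6.64% (6.03 to 7.30%). Of their bins, 6 of 7, 6 of 8 and 6 of 8 were higher in the ATO library.

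Single cytosines inside were mostly unmethylated. In the control library 54.1% of them had no methylated read, and in the ATO library 52.0%. Only 135 of the 39722 were over 20% in both libraries, and 9 were over 50% in both, in 7 regions. Of these 9, 8 lay within 500 bp of an edge. The exception was in the Sox11 region, at 72.2% and 59.5%, 2739 bp from the nearer edge. Sox11 is a transcription factor of young neurons.

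With Fisher's exact test per cytosine, a cytosine was called at a Benjamini-Hochberg adjusted p under 0.05 and a difference of at least 25 points. Over the genome 2.65% of tested cytosines were called, 0.916% higher and 1.73% lower in the ATO library. Inside the regions 17 of 39722 were called (0.0428%), 11 higher and 6 lower, in 16 regions. Cytosines near 0 can seldom reach 25 points, so the choice of regions itself bounds this share. Prdm12 was the region with more than 1. One of its cytosines was at 30.1% and 1.71% (Fisher's exact test, adjusted p = 3.41e-06), and the other, 36 bp from the edge, at 61.9% and 9.09% (adjusted p = 0.0151). Others lay in Foxd3, a neural crest transcription factor (0 of 21 and 6 of 11 reads methylated, Fisher's exact test, adjusted p = 0.0190), and in Wnt11, a secreted signal (0 of 48 and 12 of 45 reads, Fisher's exact test, adjusted p = 0.00420). With n = 1 per group, such a test speaks of these libraries and not of the exposure.

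Bins were called by Fisher's exact test on sums divided for shared fragments, at an adjusted p under 0.05 and a difference of at least 20 points, which 1.80% of all bins met (0.634% higher and 1.16% lower in the ATO library). Of the 1843 bins inside the regions, 0 were called, and 1 had an unadjusted p under 0.05. The differences of single bins inside ran from -14.6 to 11.2 points. A difference of at least 2 points was seen in 334 of them (18.1%), near the 18.5% of all bins under 10%.

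The level inside was also read from cytosines that took no part in choosing the regions, though some of their reads may also cover cytosines that did. Cytosines with at least 3 reads in both libraries, but under 10 in at least one of them, were left out of the bins. The 9513 such cytosines inside long regions were at 2.83% (2.71 to 2.95%) in control DNA and 2.77% (2.66 to 2.89%) in ATO DNA. In short chains they were at 3.54% and 3.47%, and over the genome at 43.4% and 41.5%. The difference inside long regions was -0.05 points, and its interval from -0.218 to 0.115 includes 0. The low level thus also appeared at cytosines the rule did not use. The interval also holds the pooled difference of 0.0922 points, so it does not tell the 2 values apart.

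Within a region, methylation was highest in the outermost bins. In the first 500 bp from the nearer edge it was 4.26% in control DNA and 4.44% in ATO DNA. It was 2.93% and 3.06% in the next 500 bp, 2.79% and 2.84% from 1000 bp, and 2.74% and 2.82% from 1500 bp. From 2000 bp inwards it was 3.13% and 3.09%. Around the placed starts, 217 windows of 300 bp were at 2.77% (2.68 to 2.87%) in control DNA and 2.61% (2.52 to 2.70%) in ATO DNA, against 3.19% and 3.27% in the rest of the same 144 regions. The ATO library was thus lower at the starts and higher in the rest. The median start lay 1356 bp from the nearer edge.

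Regions with a start from the listed transcription factor families lay at higher levels inside than the other long regions, described here with no test. The 24 regions with a start of a listed factor had a median of 4.26% in control DNA and 4.30% in ATO DNA, and the other 187 regions 2.89% and 2.87%. The other 187 include the 67 without a placed start, whose genes are not known here. They also include transcription factors outside the listed families, such as Prdm12, Prdm13, Runx3 and Klf4, so the contrast is not one of transcription factors against other genes. The density of analysed cytosines was alike in the 24 and the 187, with medians of 41.0 and 39.0 per kb. Within the 24, 13 were higher and 11 lower in the ATO library. The higher median was present in both libraries, and the differences between the libraries went both ways.

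The Hox genes, which set position along the body axis and are mostly silent in forebrain, gave 7 regions with a placed start, counted with their neighbour Evx2. Unnamed regions 9500 bp from the Hoxa5 region and 32000 bp from the Hoxd9 region were not counted, so 7 depends on which starts were placed. On chromosome 2 these were Evx2 (4.28% in control DNA and 5.24% in ATO DNA), Hoxd11 (3.74% and 3.30%), Hoxd10 (4.23% and 3.97%) and Hoxd9 (5.30% and 5.34%). On chromosome 6 they were Hoxa5 (5.76% and 6.52%), Hoxa3 (5.33% and 6.18%) and Hoxa11 (4.93% and 4.43%). All 7 exceeded the median of all regions in both libraries, and 4 of them were higher in the ATO library. Hoxd10 and Hoxd9 were separated by 2000 bp, and Hoxa5 and Hoxa3 by 3000 bp. In all, 11 of the 211 regions had another within 20000 bp, so that such stretches are not independent of each other.

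Genes induced by neuronal activity were also present. The lists of activity-induced, adhesion and signalling genes were drawn up after values had been seen, so their counts and medians are descriptions that support no difference between groups. Of 21 placed activity-induced genes, 10 started in a long region (1.70% of all placed genes did), and the median of these regions was 2.37% in both libraries, with Klf4 at 4.84% in the control at the upper end, with 5 higher and 5 lower in the ATO library. Bdnf, a neurotrophin of synaptic plasticity, was at 3.46% and 3.69%. Jun, a subunit of the AP-1 transcription factor, was at 1.72% and 2.13%. Egr2, a zinc-finger transcription factor, was at 2.69% and 2.21%, and Nr4a3, an orphan nuclear receptor, at 1.69% and 1.95%. Dusp6, a phosphatase of the ERK pathway, was at 2.04% and 2.82%. None of these differences exceeded 1 point, and in this group only Klf4 did.

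Of 28 placed genes of cell adhesion and axon guidance, 10 started in a long region, at a median of 2.51% in control DNA and 2.80% in ATO DNA. Here 5 were higher and 5 lower. Efna5, an ephrin ligand, was at 1.94% and 2.63%, and Nrp1, a semaphorin receptor, at 2.99% and 2.10%. Of 21 placed growth factor and morphogen signalling genes, 7 did, at 2.38% and 2.50%, with 6 higher and 1 lower. Ptch1, the hedgehog receptor, was at 1.55% and 2.06%, and Wnt1, a secreted signal, at 2.97% and 3.72%. Wnt11 was the exception, at 5.62% and 5.48%.

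Only part of the edges could be seen. An edge was closed where the next bin with enough cytosines, within 1000 bp, was at 10% or more. Of the 422 edges 186 (44.1%) were closed, which left 49 regions closed on both sides, 88 on one side and 74 on neither. Beyond the other 236 edges no bin within 1000 bp held enough analysed cytosines to be tested. Of these, 69 had at least 5 analysed cytosines within 2000 bp, and 98 had no analysed cytosine within 2000 bp. The span of such regions ends where no bin was tested, and not at a measured border. The share of closed edges was 40.2% in short chains. In the 109 regions whose placed starts all pointed one way, the upstream edge was closed in 34 and the edge on the side of the gene body in 55.

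Methylation beyond the closed edges of long regions stayed low compared with short chains. The bins in the first 500 bp had a median of 18.5% in control DNA and 20.1% in ATO DNA, and those from 500 to 1000 bp 34.5% and 34.4%. From 1000 to 1500 bp the medians were 25.5% and 29.3%, and from 1500 to 2000 bp 18.7% and 17.98%. In short chains the control medians of the same steps were 24.2%, 54.5%, 51.8% and 44.4%. The level beyond long regions thus peaked between 500 and 1000 bp, at a lower value than beyond short chains. Of the 2000-bp windows beyond the edges of long regions, 53 reached into another chain.

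**Figure D3:**
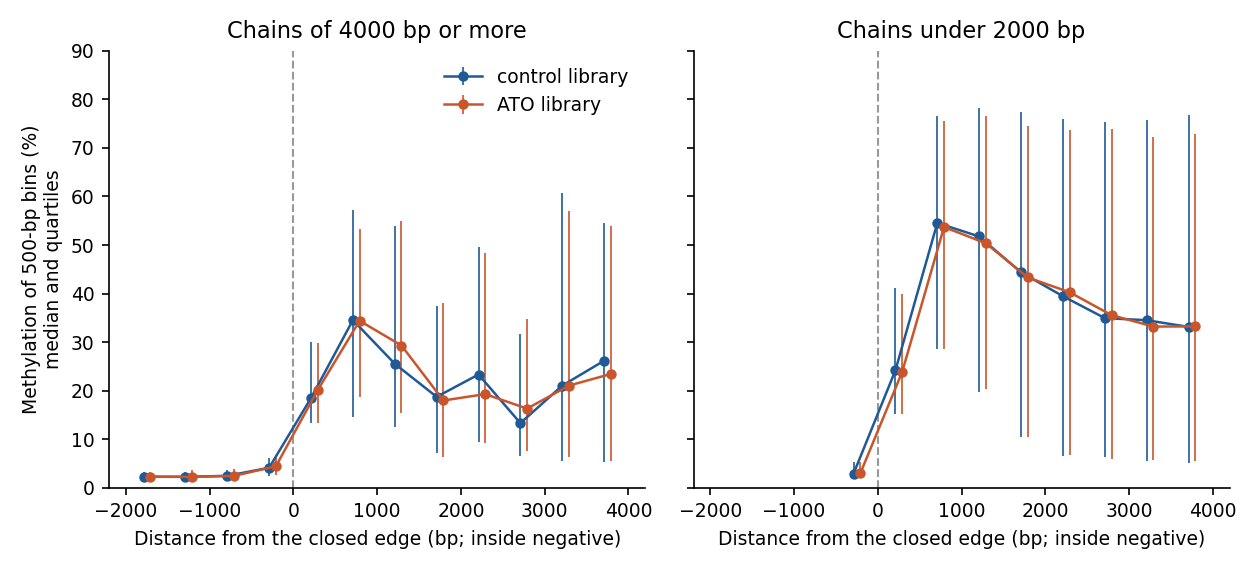
Methylation of 500-bp bins (percent, median and quartiles) by distance in bp from the closed edge, for chains of 4000 bp or more and under 2000 bp, in the control (blue) and ATO (orange) library. Both libraries run together, and the medians beyond long chains peak near 34.5%, below the 54.5% of short chains.

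Closed edges of the regions with a listed transcription factor had a lower median. Over the 2000 bp beyond them, the 18 closed edges of these regions had a median of 14.2% in control DNA and 16.2% in ATO DNA. The other 168 closed edges, which include those of transcription factors outside the list, had 31.6% and 33.0%. In the control the 18 ranged from 4.33% at Evx2 to 59.6% at Pax5, a transcription factor of B cells and the midbrain, so the groups overlap. Olig2, a transcription factor of oligodendrocyte precursors, had a closed edge at 6.66% and 7.56%, and Foxb2, a forkhead gene, had one at 41.4% and 28.5%.

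Pooled over the 2000 bp beyond all edges, methylation was 26.2% (26.0 to 26.3%) in control DNA and 27.1% (27.0 to 27.2%) in ATO DNA, a difference of 0.95 points. At closed edges it was 27.8% and 28.9%, a difference of 1.08 points. Windows at closed edges of short chains were at 40.2% and 39.5% (-0.69 points), and cytosines more than 2000 bp from any chain at 67.5% and 65.1% (-2.38 points). At closed edges of chains of 2000 to under 4000 bp the difference was -0.13 points. The windows were not built alike. Each group left out cytosines inside its own chains, so windows of long regions kept those inside shorter chains. Windows of short chains also left out long regions and their edges. The pooled difference at edges of long regions was thus positive, while those at edges of shorter chains and far from any chain were negative. Its size depends on how edges are weighted. Edge by edge, 92 closed edges were higher and 94 lower in the ATO library, with a median of -0.21 points and an SD of 8.29 points. With each of the 255 edges of at least 5 cytosines weighted alike, the difference was 0.0812 points. Shallow cytosines that the rule did not use, 581 beyond closed edges, were at 32.6% and 31.5%, with an interval of the difference from -3.04 to 0.899 points.

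Bins within a common range of levels were compared next, since differences depend on level. Bins between 20 and 80% beyond long regions (n = 225) were at 42.4% in control DNA and 42.8% in ATO DNA on average, with 119 higher and 106 lower. The mean difference was 0.417 points, with an SD over bins of 12.7. Beyond chains of 2000 to under 4000 bp the mean difference was -0.84 points (n = 3066) and beyond short chains -0.94 points (n = 11814). Far from any chain it was -4.15 points (n = 43536), and 34.8% of bins were higher, against 52.9% beyond long regions. Levels within the range were not matched, since bins far from any chain had a control mean of 57.5%. In narrower classes, the mean beyond long regions was 0.955 points at 20 to 40%, -1.12 at 40 to 60% and 1.48 at 60 to 80%. At 40 to 60% it was -1.18 points beyond chains of 2000 to under 4000 bp and -1.01 beyond short chains. Between 20 and 80%, the mean of bins next to chains of any length was closer to 0 than that of bins far away. At 80 to 100% the mean was -1.61 points beyond long regions (n = 12) and -1.38 far from any chain. There it was -1.19 beyond chains of 2000 to under 4000 bp and -1.13 beyond short chains. Bins of 1 region share its reads and neighbours, so these are descriptions.

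**Figure D4:**
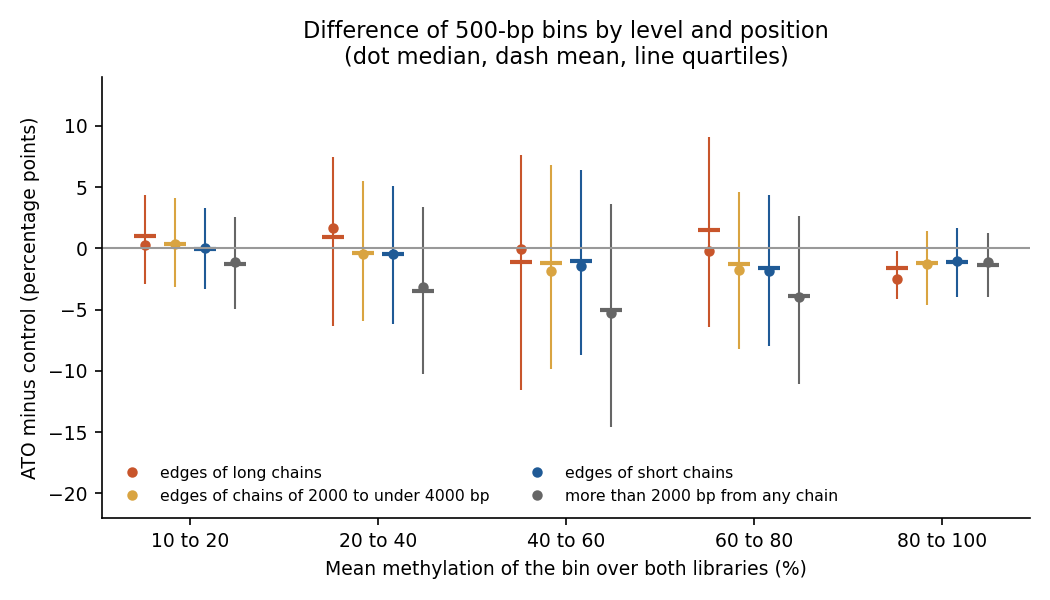
Difference of 500-bp bins (ATO minus control, percentage points) by the mean methylation of the bin in percent, for bins within 2000 bp of edges of long, intermediate and short chains and bins farther away (dot median, dash mean, line quartiles). Between 20 and 80% the bins far from any chain lie lowest, with a mean of -4.15 points, while those beyond long chains average 0.417 points with wide quartiles.

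Of the 4844 cytosines within 2000 bp beyond closed edges, 176 (3.63%) were called, 99 higher and 77 lower in the ATO library. The share was 3.50% at closed edges of short chains, whose windows were not built alike, and 4.74% far from any chain. Of 371 bins of 10% or more beyond the edges, 8 (2.16%) were called, against 1.80% of all bins, which include bins under 10%. For bins of 10% or more, the share was 2.31% beyond chains of 2000 to under 4000 bp. It was 1.55% beyond short chains and 2.86% far from any chain, so the share beyond long regions lies among these. Of the 8 called, 6 were higher in the ATO library.

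Of the 8 called bins, 5 lay beyond regions with a placed start. Beyond Adm, which codes for the vasodilator peptide adrenomedullin, the bin at chr7:117768501-117769000 was at 46.2% (36.9 to 55.6%) in control DNA and 88.8% (82.2 to 93.6%) in ATO DNA (Fisher's exact test, adjusted p = 1.19e-09). Beyond Tenm4, a teneurin of neuronal adhesion, chr7:103363001-103363500 was at 22.8% and 70.7% (Fisher's exact test, adjusted p = 1.73e-05). Next to Efna5, chr17:63228001-63228500 was at 44.7% and 74.2% (Fisher's exact test, adjusted p = 0.00257). Beyond Gata2, a transcription factor of blood and inhibitory neurons, chr6:88151501-88152000 was at 35.4% and 64.9% (Fisher's exact test, adjusted p = 0.0193). Each was higher in the ATO library, by 29.5 points at Efna5 and Gata2 and by more at Adm and Tenm4. The edge on the other side of the Adm region (chr7:117774501-117776500) was lower in the ATO library, at 63.7% and 47.8% over 22 cytosines.

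The called bin beyond Gse1, a protein of corepressor complexes, was lower in the ATO library, at 76.3% (61.4 to 88.2%) and 40.6% (27.6 to 55.8%) at chr8:123064001-123064500 (Fisher's exact test, adjusted p = 0.0403). Unnamed regions had 3 called bins. They were at 17.9% and 38.9% on chromosome 11, at 49.3% and 76.7% on chromosome 17 and at 62.6% and 21.0% on chromosome 4.

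Whole edges were ranked among the 153 closed edges with at least 10 cytosines and a mean coverage of at least 20 in both libraries. The lowest difference was at the edge of Gse1 (chr8:123063001-123065000), at 62.0% (58.8 to 65.2%) in control DNA and 33.1% (30.2 to 36.2%) in ATO DNA, with 21 of its 24 cytosines lower. An unnamed edge at chr6:119426501-119428500 was at 68.9% and 48.3%. The edge of Mecom, a transcription factor of blood stem cells (chr3:30403501-30405500), was at 58.8% and 40.2%, with 12 of 14 cytosines lower. Patz1, a zinc-finger transcription factor (chr11:3192501-3194500), had 51.0% and 33.5%. The edge of Fat4, an atypical cadherin (chr3:38781001-38783000), was at 43.4% and 26.2%, with all 15 cytosines lower.

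The highest difference was at the edge of Efna5 (chr17:63227001-63229000), at 28.6% (26.1 to 31.2%) in control DNA and 47.9% (45.2 to 50.6%) in ATO DNA, with 15 of 16 cytosines higher. The edge of Zfp503, a repressor of striatal development, and of the noncoding A330001L22Rik (chr14:22803001-22805000) was at 24.4% and 42.7% over 80 cytosines, of which 65 were higher. Sall1, a transcription factor of kidney development and microglia (chr8:91569501-91571500), had 21.3% and 38.5% over 64 cytosines, 56 of them higher. Per1, a repressor of the circadian clock (chr11:68914001-68916000), had 62.8% and 79.1%, and Gata2 (chr6:88150501-88152500) 24.97% and 39.8%. Without the edges of Zfp503 and Sall1, which hold 144 cytosines, the pooled difference over all edges was 0.675 points.

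At each of these 10 edges most cytosines lay on the same side, and inside the regions behind them the libraries differed by less than 1 point. Both follow largely from the choice. The edges were ranked by this same difference, and bins inside were chosen to be under 10%, which leaves little room to differ. Inside, the Gse1 region was at 2.34% and 1.84%, Mecom at 3.54% and 3.70%, Patz1 at 3.11% and 2.36%, Sall1 at 3.53% and 3.50%, and Per1 at 1.97% and 2.28%. The Pcdh7 region, one of the 10 longest, had an edge at 11.9% and 26.1% over 26 cytosines. The plot of single cytosines across 4 of these edges shows the libraries together inside and apart beyond the edge, a contrast that this choice builds in.

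**Figure D5:**
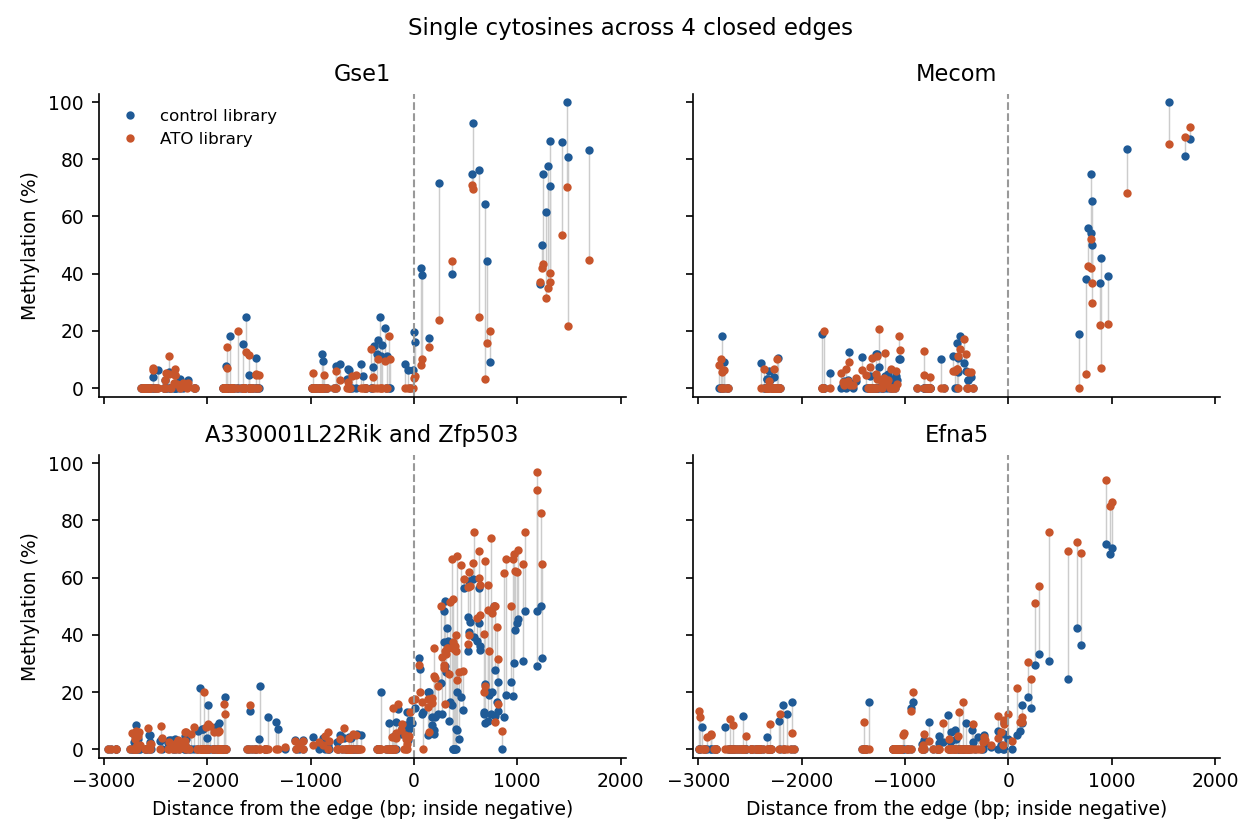
Methylation of single cytosines (percent) by distance in bp from a closed edge, in the control (blue) and ATO (orange) library, with grey lines joining the values of 1 cytosine. Beyond the edge the ATO library lies below the control at Gse1 and Mecom and above it at Zfp503 and Efna5, while inside nearly all cytosines are under 25% in both.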

How the data were processed

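Each deposited table, 1 per library, lists CpG cytosines by strand with a coverage and 2 percent values. Per the file headers, coverage is the count of reads deposited by the authors, and the percent of C and of T among them are given with 2 decimals. The tools listed in the submitters' processing notes are Bismark 0.19.0, Bowtie2 and bcl2fastq, and the build is mm9. For trimming and duplicate removal no step is given in the sources used here. The methylated count of a cytosine is its coverage multiplied by its percent of C. All products were whole within 0.005 percentage points, though above 10000 reads (72 and 60 cytosines) single reads are not resolved.

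Cytosines needed at least 10 reads in both libraries, and bins of 500 bp at least 5 cytosines. A level is summed methylated reads over summed coverage. Fisher's exact tests with Benjamini-Hochberg adjustment (scipy 1.17.1, Python 3.11.15) ran over all cytosines or bins of all chromosomes. Since reads of 1 fragment are not independent, the sums of a bin were scaled down by how many analysed cytosines its densest 300 bp held. The tests were tried on simulated data with reads drawn independently at each cytosine, which could not check the scaling for shared fragments. Regions named were the 10 longest, the 3 with the largest and smallest difference each (at least 100 cytosines), the 5 edges each way and the 3 on each side of the 4000-bp limit. Members of the gene groups and regions with called cytosines or bins were named beside them after their values were seen.

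No mm9 genome was used. Genes were named by matching the CG spacing of RefSeq promoters (GRCm38.p6) to the listed mm9 positions. The match needed at least 8 CGs and 80% of the promoter's CGs, with a lead of 4 over the next place. It placed 12744 promoters, 12739 of them (99.96%) on the chromosome RefSeq gives. Gene naming had been planned only with an annotation of the build, and this way was chosen after the files were seen. Promoters with few CGs could not be placed. The regions and gene lists were chosen with earlier results of these data known. Alternatives changed coverage, bin, gap, level, span, strand, weight and thresholds.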

Additional observations from a re-analysis of the deposited data

How the results depend on the processing

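No paired analysis was possible because each group has 1 library. For the 16 regions and edges named for their difference, coverage minimums of 5 and 20 and the reverse strand alone gave 48 values, which kept their direction. Most reverse-strand values repeat the reported ones, and bin size, gap, level and span were not varied for single regions. The difference inside was positive in 15 of 17 alternatives and the difference at edges in 21 of 21 (0.0768 to 1.08 points), but their sizes and all counts depended on how chains were built. The cause was not tested.

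With a coverage minimum of 5 the edge difference was 0.621 points, and with 20 there were 4 called edge bins. Bins of 250 bp gave 0.0525 points inside. Bins of 1000 bp gave 499 regions, 0.0248 points inside, 0.0768 at edges, 509 called cytosines inside or within 2000 bp (223 as reported) and 20 called edge bins. With 3 cytosines per bin these were 0.0483 points inside and 13 edge bins. With 10 they were 132 regions, 0.0525 points inside, 0.553 at edges and 0 edge bins.

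Chaining bins under 5% gave 86 regions, 0.0231 points inside, 0.573 at edges, 69 cytosines and 3 edge bins. Chaining bins under 15% gave 0.615 points at edges, 367 cytosines and 19 edge bins. Starts at most 500 bp apart gave 107 regions, -0.00241 points inside, 0.300 at edges, 115 cytosines and 4 edge bins. Starts at most 2000 bp apart gave 332 regions and 0.382 points at edges. A span of 3000 bp gave 745 regions, 0.668 points at edges, 731 cytosines and 34 edge bins. A span of 6000 bp gave 28 regions, 0.0231 points inside, 0.288 at edges, 25 cytosines and 0 edge bins.

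Levels of the control library alone gave 0.278 points inside and 13 edge bins, and those of the ATO library alone -0.0372 points inside: a library that chooses the bins has the lower level in them. At edges, weighting each alike gave 0.0812 points and windows of 4000 bp 0.310. Leaving out the named edge of Zfp503 and that of Sall1, chosen after seeing the data, gave 0.675, with their opposite edges kept. An adjusted p under 0.01 left 132 called cytosines, and sums not divided for shared fragments gave 22 called edge bins.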

Other observations

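On chromosome X, which the regions above leave out, 550 chains were found by the same rule, and 3 of them spanned 4000 bp, the longest there. They were at 1.99% and 1.40%, 4.19% and 4.71%, and 2.17% and 3.18% in the control and ATO library.

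The widest differences fell on regions with few cytosines, which the rule for naming regions passes over, and were picked here after their values were seen. The unnamed region at chr5:29797001-29801000 was at 5.30% in control DNA and 9.53% in ATO DNA over 82 cytosines, the highest difference inside of the 211 regions. The closed edge at chr4:82153501-82155500 was at 63.1% and 17.8% over 8 cytosines, the lowest difference of the 186 closed edges.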
